A study of Mus musculus with 20 samples.

Results

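The replication-dependent histone genes encode the linker histone H1 and the core histones H2A, H2B, H3 and H4, and most of them lie in clusters. They were taken here as every probe, control spots aside, whose gene name in the scanner files begins with Hist1h, Hist2h, Hist3h or Hist4h. That rule gave 54 probes for 49 gene names among 39429 probes, and it used no measured value. By class they were 6 H1, 15 H2A, 12 H2B, 8 H3 and 13 H4 probes. By cluster, 39 probes named 36 genes of Hist1 on chromosome 13, 10 named 9 genes of Hist2 on chromosome 3, 3 named 3 genes of Hist3 on chromosome 11 and 2 named 1 gene of Hist4 on chromosome 6. The genes Hist1h2ak, Hist1h4i, Hist1h4k, Hist2h4 and Hist4h4 had 2 probes each.

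In a dividing cell these genes are transcribed mainly in S phase, when new DNA has to be packed into nucleosomes. Their mature mRNAs are not polyadenylated but end just after a short stem-loop, which is bound by the stem-loop binding protein Slbp, and these mRNAs are degraded when DNA synthesis stops. In differentiated cells some of the genes are also known to give longer, polyadenylated transcripts that run past the stem-loop. In the colon, dividing cells lie at the crypt base and depend on Wnt and other niche signals.

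The organoids were grown from crypts of the first 2.5 cm of the proximal colon of male mice aged around 40 days that carried 1 Cre-activable BrafV600E allele (Braf+/LSL). EV organoids carried an empty lentiviral vector. BRAF organoids had received Cre, with induction 5 months before. Selected organoids were BRAF organoids chosen for growth in base medium, which lacks the stem-cell niche factors. Each culture then spent 48 hours either in ENSW, a medium with EGF, Noggin, R-spondin and Wnt3a, or in base medium. There were 3 lines of each type in each medium, 18 one-colour arrays in all, plus 1 wild-type array in each medium that entered no test. The labels do not state whether lines came from separate mice, so the p-values measure the spread between these cultures. The level of a probe is its log2 signal relative to the 75th percentile of its array, and differences are in log2 units ± SE from a limma fit over 26826 probes. A probe was called where its p, after Benjamini-Hochberg adjustment over all of them, was below 0.05. The arrays are of bulk RNA, so fewer cells of a type and less RNA per cell cannot be told apart.

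Of the 54 probes, 51 passed the filter for the test, which asked for a signal well above background on 3 of the 18 arrays, and 39 were well above background on all 18. The probe of Hist2h2ab and 1 probe of Hist4h4 were not well above background on any array. The probe of Hist1h1d was so on 2 arrays, both of EV organoids in base medium, and was not tested. Between 59.6% and 65.2% of spots per array were well above background and none was saturated. The arrays lay on 6 slides, and EV organoids shared none with BRAF or selected organoids, so slide and type cannot be told apart in those comparisons. All 11 colon epithelium markers, Epcam and Cdh1 among them, were tested, and 8 of 15 blood, endothelial and mesenchymal markers did not pass the filter. The summed level of the epithelial markers ran from 8.97 to 11.43 over the 18 arrays.

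Many of these genes are close copies, and several H2A probes cover the same stretch that encodes the end of the protein. The sequences are given because their likeness limits what each probe can tell. In the lines below they run 5′ to 3′ in the sense of the transcript, and capitals mark the bases that differ from the Hist1h2ah probe where the probes align without gaps.
Hist1h2ah: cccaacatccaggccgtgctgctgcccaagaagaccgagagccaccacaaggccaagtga
Hist1h2af: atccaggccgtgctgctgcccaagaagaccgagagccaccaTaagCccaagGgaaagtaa
Hist1h2ag: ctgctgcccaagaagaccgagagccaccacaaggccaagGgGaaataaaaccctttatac
Hist1h2ak: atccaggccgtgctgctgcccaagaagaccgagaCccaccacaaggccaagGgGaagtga
Hist1h2an: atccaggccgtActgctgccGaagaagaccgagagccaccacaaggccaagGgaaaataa
Hist2h2aa2: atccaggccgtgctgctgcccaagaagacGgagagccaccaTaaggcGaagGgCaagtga
On mm9, the build of the files, the first lies at chr13:22127035-22127094, minus strand, and the last at chr3:96049837-96049896, plus strand. Against the Hist1h2ah probe, 51 of 54 aligned bases were identical for Hist1h2af, Hist1h2ak and Hist1h2an, 40 of 42 for Hist1h2ag and 49 of 54 for Hist2h2aa2. The Hist2h2ac probe shared an unbroken run of 42 bases with it. Transcripts of 1 of these genes may therefore be read by the probes of others, and their values are not independent of each other. The H4 probes of Hist1h4c, Hist1h4d, Hist1h4j and Hist1h4k were 85.42% to 95.83% identical to each other where they aligned.

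In EV organoids the histone probes divided into a large set that fell in base medium and a smaller one that rose. Of the 51 probes, 28 fell and 10 rose, against 19.2% and 23.3% of all probes tested, and the median difference was -0.90 against 0.18 over all probes. The falls reached -4.09 for Hist1h2ab and the rises 3.73 for Hist2h3c2-ps. In all, 42.6% of all probes were called in this comparison. The summed level of the 15 blood, endothelial and mesenchymal markers was 4.44 to 4.49 in ENSW and 5.402 to 5.999 in base medium, with Itgam alone called, and that of the 11 epithelial markers was 10.51 to 10.68 and 11.35 to 11.43, with 5 higher. Their part in the histone values was not tested.

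**Figure D1:**
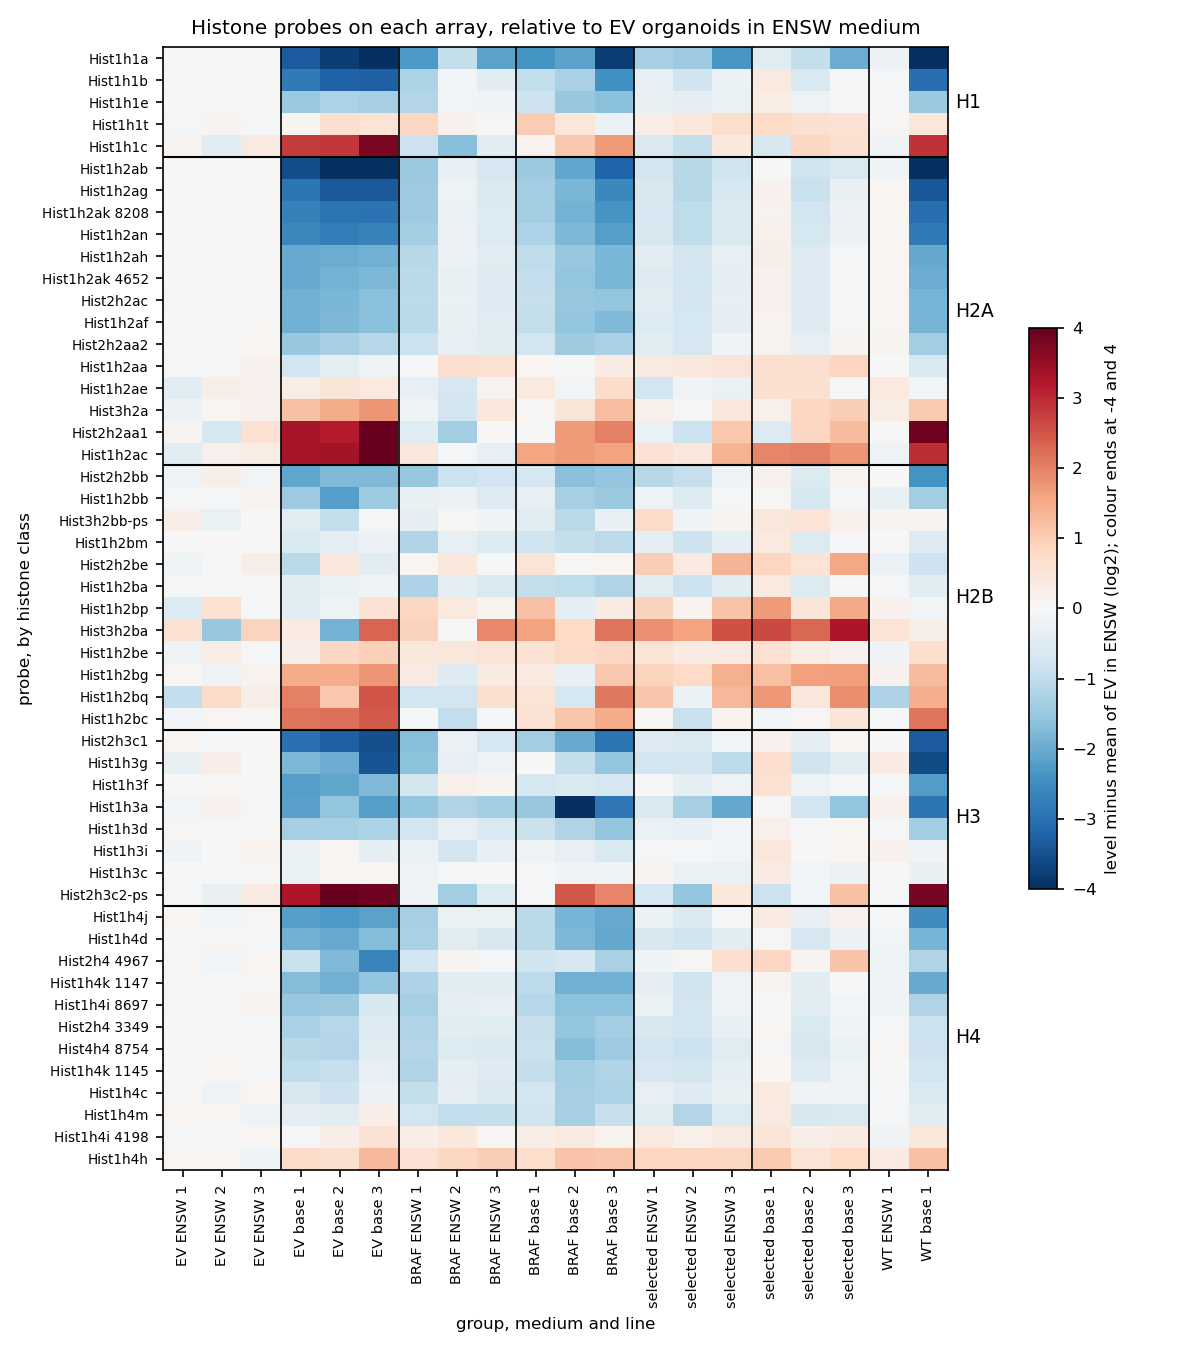
Level of each of the 51 tested histone probes on each array minus the mean of the 3 EV arrays in ENSW (log2, colour from -4 to 4), with rows grouped by class and, within a class, ordered by the response of EV organoids. The EV arrays in base medium are blue for most rows and red for 10 that rose, the wild-type array in base medium shows the same colours, and the selected arrays are paler than the EV arrays in base medium.

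Among the linker histones, 3 of 5 tested probes fell and 1 rose. Hist1h1b, which encodes a main-type H1 subtype, was at 1.84, 1.76 and 1.77 in EV lines 1 to 3 in ENSW and at -1.05, -1.43 and -1.48 in base medium. The groups lay far apart, and the level was 8.63-fold lower in base medium (-3.11 ± 0.36, limma adjusted p = 2.99e-05). Hist1h1a went from 3.38, 3.37 and 3.29 to 0.02, -0.41 and -1.003, a 14-fold fall (adjusted p = 5.46e-05). Hist1h1e fell less, by 1.36 (adjusted p = 0.000913). Hist1h1c went the other way, from 2.36, 1.78 and 2.59 in ENSW to 5.04, 5.09 and 6.02 in base medium. Its lowest array in base medium was well above its highest in ENSW, and the rise was 8.8-fold (3.14 ± 0.51, adjusted p = 0.000243). The testis-specific Hist1h1t differed by 0.43 ± 0.28 and was not called (adjusted p = 0.233). The untested Hist1h1d was at -7.85, -7.52 and -7.09 in ENSW and at -5.86, -4.91 and -4.39 in base medium. The bound described under processing gave 1.69-fold higher there. Only 2 of 3 arrays in base medium were above background, so this fold is not a strict minimum.

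Of 14 tested H2A probes, whose histone pairs with H2B, 9 fell and 3 rose, and the class median, -1.80, was the lowest of the 5. Hist1h2ab stood at 2.84, 2.76 and 2.87 in ENSW and at -0.71, -1.24 and -1.84 in base medium, a 17-fold fall (-4.09 ± 0.41, adjusted p = 1.13e-05). The 7 probes with shared tail sequence, Hist2h2ac included, all fell, from 1.33 for Hist2h2aa2 to 3.20 for Hist1h2ag in log2 units. These 7 are among the 9 that fell and are not independent of each other. The counts and median of the class, and its rank among classes, thus lean on that shared stretch. Hist1h2ac rose: its signal was not well above background on any EV array in ENSW and was on all 3 in base medium, at -2.45, -2.43 and -1.74. That gave a level at least 10.4-fold higher in base medium (adjusted p = 4.14e-06). Hist2h2aa1 went from 1.07, 0.25 and 1.57 to 4.26, 4.10 and 5.18, an 11.7-fold rise (adjusted p = 0.00059). Hist3h2a rose by 1.47 ± 0.33 (adjusted p = 0.00281). Hist1h2ae and Hist1h2aa were not called, at 0.39 ± 0.28 and -0.42 ± 0.20.

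The H2B class was the least uniform, with 4 of 12 rising, 2 falling and a median of -0.15. Hist1h2bc was at 3.40, 3.58 and 3.54 in ENSW and 5.64, 5.70 and 5.96 in base medium, 4.78-fold higher (adjusted p = 8.22e-05). Hist1h2bg rose by 1.58 ± 0.31 (adjusted p = 0.00111) and Hist1h2be by 0.67 ± 0.19 (adjusted p = 0.0109). Hist1h2bq was above background on 2 EV arrays in base medium and none in ENSW (limma adjusted p = 0.0484). Its bound was 2.22-fold higher, not a strict minimum because the third array in base medium was not above background. The Hist1h2bq call was lost in 21 of 37 alternative settings, with an adjusted p of up to 0.29 without EV line 1 in both media. Hist1h2bb fell by 1.70 (adjusted p = 0.000484). Hist2h2bb was above background on all 3 arrays in ENSW and on none in base medium, at least 2.74-fold lower there (adjusted p = 0.000311). Hist1h2bm at -0.39 ± 0.25 and the testis gene Hist1h2ba at -0.28 ± 0.24 were not called. Hist3h2ba varied more between lines than between media, at -2.97, -5.08 and -2.70 in ENSW and -3.26, -5.47 and -1.24 in base medium, with line 2 lowest in both.

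Of 8 H3 probes 5 fell and 1 rose, with a median of -1.64. Hist2h3c1 went from 4.45, 4.34 and 4.36 to 1.41, 1.13 and 0.86, a 9.5-fold fall (-3.25 ± 0.37, adjusted p = 2.69e-05). Its pseudogene-labelled neighbour Hist2h3c2-ps went from -2.44, -2.67 and -2.05 to 0.84, 1.68 and 1.501, a 13.2-fold rise (adjusted p = 0.000464). The groups of each of these probes lay fully apart, in opposite directions. Hist1h3f fell by 2.02 and Hist1h3d by 1.30. Hist1h3g was at least 4.04-fold lower in base medium, where no array was above background (adjusted p = 0.00193). Hist1h3c was not called, at -0.04 ± 0.16.

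H4 probes mostly fell, 9 of 12, with a median of -0.94, against -1.80 for H2A and -1.64 for H3. The H2A and H4 classes both hold probes that are alike in sequence, which weighs on these medians. Hist1h4j was at 0.07, -0.13 and 0.04 in ENSW and -2.21, -2.30 and -2.16 in base medium, 4.65-fold lower (adjusted p = 6.63e-05). Hist1h4d fell by 1.89 and Hist1h4k by 1.73 on the probe nearer the start of its transcript and by 0.76 on the other. Hist2h4 fell by 0.98 on 1 probe, and on the other it was at least 1.85-fold lower. Hist4h4 fell by 0.90. Hist1h4h alone among H4 probes rose, by 0.89 ± 0.19 (adjusted p = 0.00227).

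**Figure D2:**
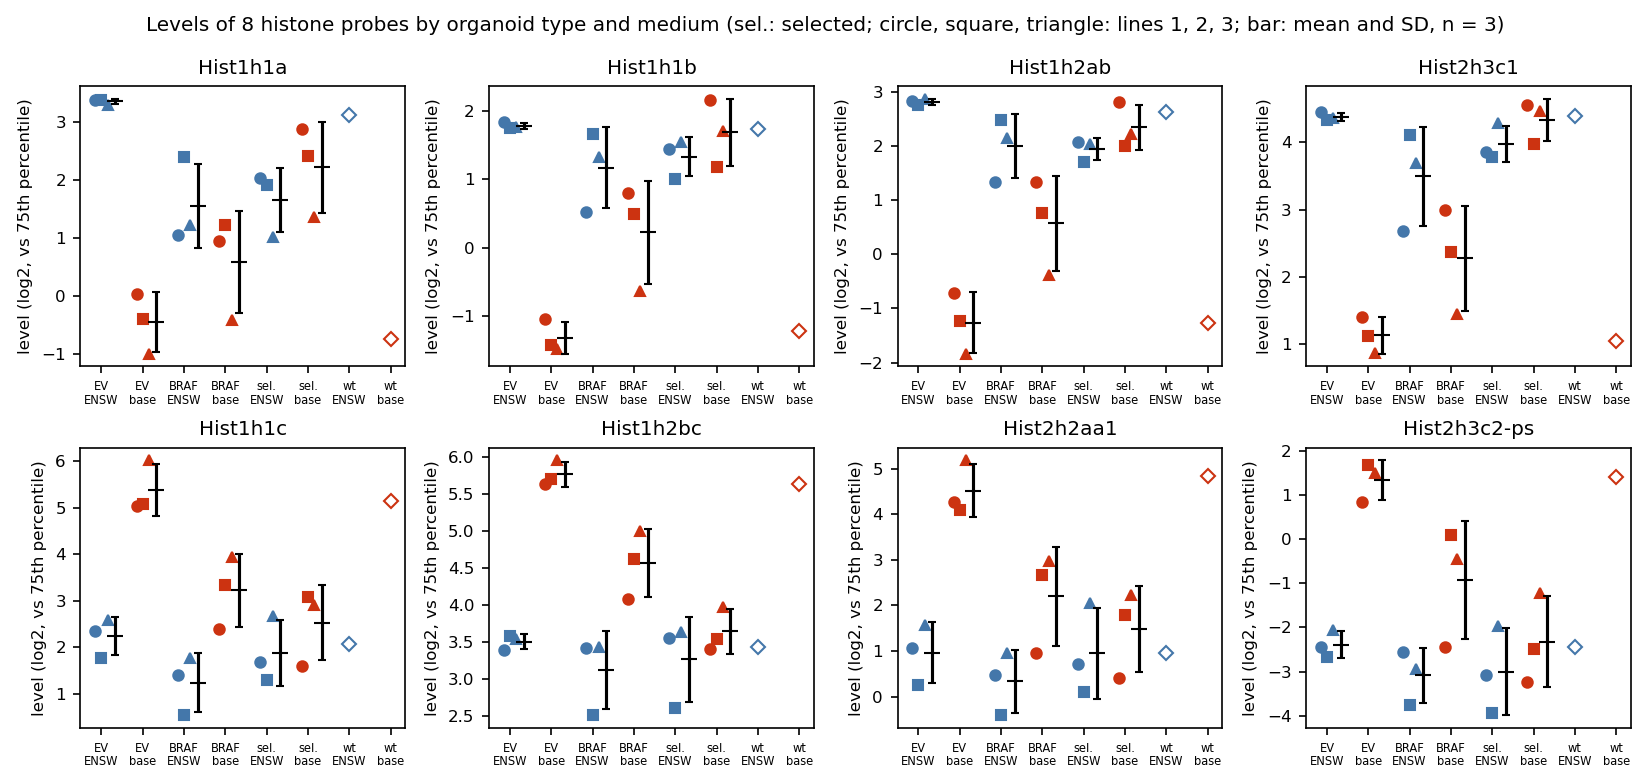
Level (log2 signal minus the array's 75th percentile) of 8 histone probes in EV, BRAF, selected and wild-type organoids in ENSW (blue) and base medium (red), with lines 1, 2 and 3 as circle, square and triangle and the mean and SD of 3 arrays in black. The upper 4 probes fell and the lower 4 rose in EV organoids in base medium, and for each the single wild-type array in base medium lies on the same side as the EV arrays.

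The probes that rose and those that fell differed in where they lie along the transcript. This split was made after the values were seen and carries no test. Probe positions are those of the files, set against the RefSeq length of the gene, for 52 probes matched by accession. Of 37 tested probes inside that length, EV organoids in base medium had 28 lower and 2 higher, with a median difference of -1.73. Of 8 that reach past its end, 5 rose and none fell, with a median of 1.52. The 5 were Hist1h1c, 677 bases past the end, Hist1h2ac, 1999 bases, Hist2h3c2-ps, 368 bases, Hist3h2a, 319 bases, and Hist1h2bg, 150 bases. The untested Hist1h1d probe reached 2170 bases past it. Of 5 probes of genes whose RefSeq length is over 1000 bases, 3 rose, Hist1h2bc, Hist1h2be and Hist1h2bq, and none fell. The labels name T7 transcription with Cy3-labelled CTP, and the primer of the first strand is not given in the sources used here.

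**Figure D3:**
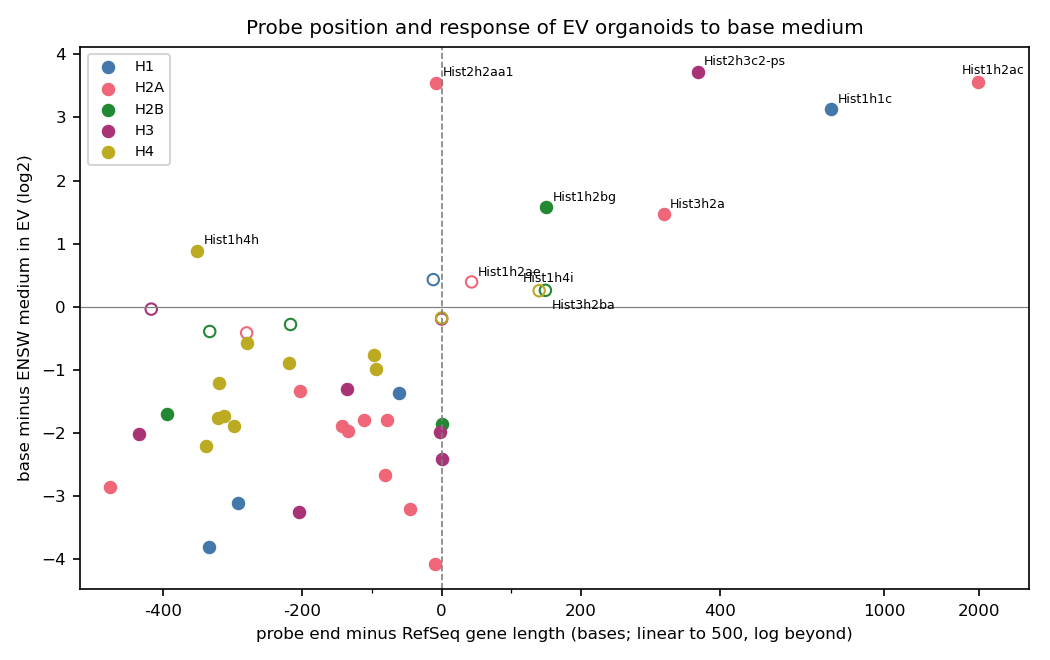
Difference between base medium and ENSW in EV organoids (log2, vertical axis) against the end of the probe minus the RefSeq length of its gene (bases, linear to 500 and log beyond), for 45 tested histone probes, filled where called. Filled points left of the dashed line lie below 0 apart from Hist2h2aa1 and Hist1h4h, and the 5 filled points right of it lie above 0.

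The 2 probes that rose although they lie inside the RefSeq length were Hist2h2aa1, which ends 8 bases before its end, and Hist1h4h. Of the 54 probes 6 held GGCTCTTTT, the first letters of the stem-loop in many histone mRNAs, as did 17 of all 39429 probes (0.0431%), searched on the sense strand. In Hist1h1a these letters lay within other sequence, and in Hist1h2ab the probe ended inside the stem-loop. Of the 6, 4 probes held the whole stem-loop, shown in capitals in windows of at most 30 bases.
Hist2h2aa1: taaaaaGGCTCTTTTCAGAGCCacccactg
Hist2h2bb: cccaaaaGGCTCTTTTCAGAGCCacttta
Hist1h3a: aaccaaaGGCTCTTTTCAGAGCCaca
Hist1h3i: aacaaaaGGCTCTTTTCAGAGCCccctc
After the stem-loop the Hist2h2aa1 probe (chr3:96049949-96050008, plus strand, mm9) runs on for 38 of its 60 bases, and the others for 6, 3 and 5 bases. In EV organoids Hist2h2aa1 rose, Hist2h2bb and Hist1h3a fell, the last by 1.98 (adjusted p = 0.00828), and Hist1h3i was not called, at -0.20 ± 0.18. The search did not cover stem-loops with other loop letters. The Hist1h3g probe, which fell in EV organoids, holds such a stem-loop near its end (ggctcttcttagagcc).

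Of the genes with a pair of probes, Hist1h4i alone had a probe on each side of its RefSeq end. The Hist1h4i probe inside the gene was at 0.65, 0.60 and 0.80 in EV organoids in ENSW and -0.84, -0.79 and 0.03 in base medium, a fall of 1.22 (adjusted p = 0.00368). The other Hist1h4i probe, which reaches 140 bases past the end, was at 2.71, 2.78 and 2.86 and 2.73, 3.03 and 3.35, and was not called (0.25 ± 0.16). The probes of Hist1h2ak both lie inside the gene and fell, by 2.86 and 1.90.

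In BRAF organoids few histone probes were called between media with no block and more with culture as a block, and 1 line lay apart from the others. With no block, 2 of 51 probes were called, both higher, against 1.76% of all probes (1.1% higher and 0.656% lower), and the median difference was -0.46 against 0.05 over all probes. Hist1h2ac, above background on no array in ENSW and on all 3 in base medium, was at least 2.60-fold higher (adjusted p = 0.0186). Hist1h2bc went from 3.42, 2.51 and 3.43 to 4.08, 4.63 and 5.002, 2.73-fold higher (adjusted p = 0.0357). The call was lost in 7 of 38 alternative settings for Hist1h2ac and in 14 of 38 for Hist1h2bc. At an unadjusted p under 0.05 there were 29 probes. The share of all probes at that cut is not given, here or below, so such counts are not set against it.

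Arrays of the same line in both media deviated together from their group means, with correlations of 0.48 to 0.69 in BRAF organoids. With culture as a random block, 27 histone probes were called in BRAF organoids, 7 higher and 20 lower. That fit called 19.8% of all probes, 10.1% higher and 9.64% lower. In that fit Hist1h2ab fell by 1.43 (adjusted p = 0.0132), Hist2h3c1 by 1.22 (adjusted p = 0.0213) and Hist1h1b by 0.95 (adjusted p = 0.0388). Hist1h1c rose by 1.98 ± 0.38 (adjusted p = 0.00438) and Hist2h3c2-ps by 2.16 ± 0.53 (adjusted p = 0.014). With line number as a fixed block, 4 probes were called, all higher. The share of all probes called in that fit is not given here.

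Within each BRAF culture, the median over the 28 probes that fell in EV organoids was 0.13 in line 1, -1.24 in line 2 and -1.32 in line 3. Over the 10 that rose in EV organoids it was 0.35, 1.47 and 1.52. The EV lines had medians of -1.90, -1.91 and -1.74 for the 28 probes, but those probes were chosen by their fall in the same EV arrays. BRAF line 1 thus lay near 0 where BRAF lines 2 and 3 moved in the direction of the EV lines. Hist1h1b shows this: BRAF lines 1 to 3 were at 0.52, 1.67 and 1.34 in ENSW and 0.81, 0.50 and -0.63 in base medium. Line 1 was lowest in ENSW and highest in base medium. The same held for Hist2h3c1, at 2.69, 4.11 and 3.69 in ENSW and 2.999, 2.38 and 1.46 in base medium. With no block, 22 probes were called without the line 1 array in base medium and 5 without that in ENSW. None was called without any 1 of the 4 arrays of lines 2 and 3, and 1 without EV line 1 or EV line 3 in ENSW. Without BRAF line 1 in both media 22 were called. The shares of all probes in these fits with arrays left out are not given here.

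In selected organoids no histone probe was called between media, and 1 of all 26826 probes was (0.00373%). At an unadjusted p under 0.05 there were 3 histone probes in the limma fit, and the fit with culture as a block also called none. The differences were small and mostly above 0, for 49 of 51 probes, with a median of 0.39 and a range from -0.06 to 1.11. Per culture, the median over the 28 probes that fell in EV organoids was 0.70, 0.22 and 0.23 in lines 1, 2 and 3. Hist2h3c1 was at 3.86, 3.79 and 4.28 in ENSW and 4.56, 3.98 and 4.46 in base medium. Hist1h2ab was at 2.08, 1.72 and 2.04 and 2.82, 2.02 and 2.23. Each of the 3 lines was higher in base medium, line 1 by the most.

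**Figure D4:**
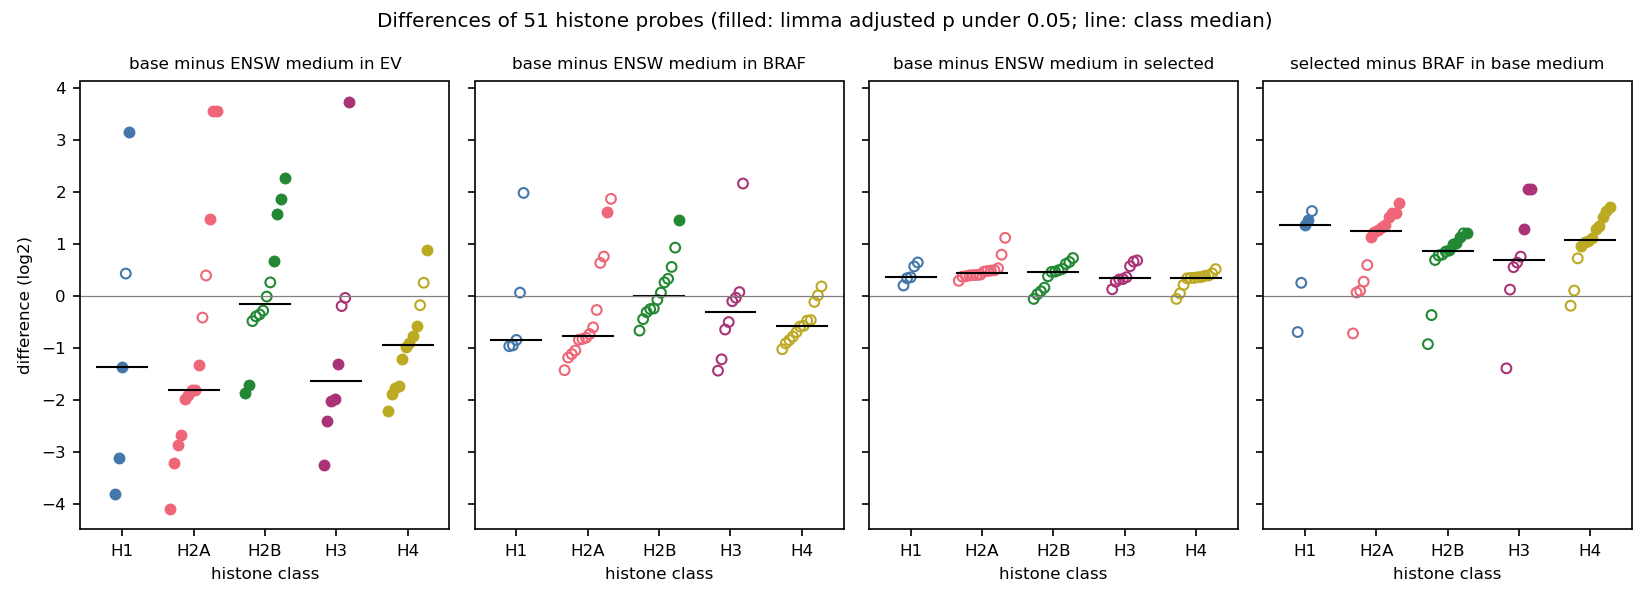
Differences of the 51 tested histone probes by class (log2, vertical axis) in 4 comparisons, filled where called, with the class median as a line. In EV organoids the probes spread from -4.09 to 3.73, in BRAF organoids they lie closer to 0, in selected organoids none is filled, and in base medium all 28 filled points of selected minus BRAF lie above 0.

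The test of the difference between medium responses, an interaction term, separated selected from EV organoids. For 28 probes the response was higher in selected than in EV organoids and for 6 lower, against 13.9% and 10.5% of all probes (24.4% in all), with a median of 1.28 against -0.18 over all probes. Examples were Hist1h2ab, by 4.49 ± 0.57 (adjusted p = 0.000351), Hist2h3c1, by 3.61 ± 0.53 (adjusted p = 0.000626), and in the other direction Hist2h3c2-ps, by -3.05 ± 0.93 (adjusted p = 0.0284), a call lost in 11 of 38 alternative settings. Between BRAF and EV organoids the response differed for 7 probes, 6 higher and 1 lower, against 2.77% and 0.529% of all probes (3.3% in all). They included Hist1h1a, by 2.84 ± 0.70 (adjusted p = 0.0444), and Hist1h2ac, by -1.95 ± 0.40 (adjusted p = 0.0272), which lost their calls in 23 and 13 of 38 alternative settings. This count rests on single arrays: it was 0 to 14 when 1 array was left out, with 0 without any 1 of the EV arrays in ENSW, the line 3 EV array in base medium, BRAF line 1 in either medium or BRAF line 3 in ENSW. It was 1 without BRAF line 2 in base medium, 2 without any 1 of the selected arrays in ENSW, 14 without BRAF line 3 in base medium and 21 with culture as a block, which called 20% of all probes (11.9% higher and 8.07% lower). Between selected and BRAF organoids no histone probe and no other probe was called (0% of all), 27 histone probes had an unadjusted p under 0.05, and culture as a block called 6, against 1.89% of all probes (0.813% higher and 1.08% lower). The shares of all probes called with arrays left out are not given here. These tests of responses share arrays with each other and with the comparisons within types.

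In ENSW, where all types have the niche factors, few histone probes were called between types, but most lay lower in BRAF and selected than in EV organoids. Between BRAF and EV organoids 2 were called, against 5.44% of all probes (4.13% higher and 1.3% lower): Hist1h1a was lower in BRAF organoids, at 1.05, 2.38 and 1.21 against 3.38, 3.37 and 3.29 (-1.80 ± 0.49, adjusted p = 0.049), and Hist1h4h was higher by 0.80 ± 0.19 (adjusted p = 0.0314). These calls were lost in 24 and 11 of 37 alternative settings. Over the 51 probes the median difference was -0.61 against 0.05 over all probes, 10 were above 0 and 26 had an unadjusted p under 0.05. For 30 probes all BRAF arrays lay below all EV arrays and for 2 above, against 13.8% and 21% of all probes. Between selected and EV organoids 3 were called, against 13.1% of all probes (8.06% higher and 5% lower). Hist1h1a was lower, by 1.70 in log2 units (adjusted p = 0.0369), and Hist1h4h and Hist1h2bg were higher, by 0.85 ± 0.19 and 1.04 ± 0.31. The call of Hist1h2bg was lost in 21 and that of Hist1h1a in 11 of 37 alternative settings. The median over the 51 probes was -0.38 against 0.09 over all probes, 14 were above 0 and 21 had an unadjusted p under 0.05. For 28 probes all selected arrays lay below all EV arrays and for 9 above, against 15.9% and 24.9% of all probes. The count for BRAF organoids was 0 without any 1 of the EV arrays, BRAF line 2 or BRAF line 3 in ENSW. The count for selected organoids was 0 without EV line 3 in ENSW, and 1 without any 1 of the other EV arrays or of the selected arrays in ENSW, and 6 without BRAF line 1 in both media. The shares of all probes called with these arrays left out are not given here. For Hist1h1b the EV level in ENSW was 1.79 ± 0.04 and the BRAF level 1.18 ± 0.59 (mean ± SD, n = 3), so the BRAF lines were spread more widely. No histone probe was called between selected and BRAF organoids in ENSW (0.544% of all probes were), 2 had an unadjusted p under 0.05, and the median difference was 0.15.

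In base medium, between BRAF and EV organoids, 8 histone probes were higher and 8 lower in BRAF, against 17.4% and 13.4% of all probes (30.8% in all), with a median of 0.09. The share of histone probes called was thus near that of all probes. All 8 that were higher belong to the 28 that fell in EV organoids in base medium, and 6 of the 8 that were lower belong to the 10 that rose. These comparisons share the EV arrays in base medium. Hist1h3f was 2.6-fold higher, at -0.54, -0.48 and -0.53 against -2.07, -1.97 and -1.65 (adjusted p = 0.000976), and the groups did not overlap. Hist1h2ab was higher by 1.84 ± 0.41 and Hist1h1b by 1.54 ± 0.36. Hist1h2ac was 3.8-fold lower, at -4.18, -4.08 and -4.14 against -2.45, -2.43 and -1.74 (adjusted p = 0.00031), and Hist1h1c was lower by 2.16 in log2 units. The count of 16 dropped to 8 without the EV line 3 array, to 9 without BRAF line 1 and to 10 without BRAF line 2 in base medium, and to 5 without EV line 3 in both media. The shares of all probes called in those fits are not given here.

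Between selected and EV organoids in base medium, 30 of 51 histone probes were higher and 5 lower in selected organoids, against 25.1% and 23.7% of all probes (48.8% in all), with a median of 1.22 against 0.02 over all probes. Hist1h2ab was 12.3-fold higher, at 2.82, 2.02 and 2.23 against -0.71, -1.24 and -1.84 (adjusted p = 8.64e-06). Hist2h3c1 was 9.2-fold higher (adjusted p = 1.17e-05) and Hist1h1b 8.05-fold (adjusted p = 1.54e-05). The 5 that were lower were Hist1h1c, Hist1h2ac, Hist1h2bc, Hist2h2aa1 and Hist2h3c2-ps, all among the 10 that rose in EV organoids, and the last was 12.6-fold lower (adjusted p = 0.000375). This comparison and that of EV organoids between media share the EV arrays in base medium, so their calls are not independent. All 9 tested Hist2 probes were called, 7 higher and 2 lower. The summed level of the epithelial markers was 8.97 to 10.42 in selected and 11.35 to 11.43 in EV organoids in base medium, with 8 of 11 lower, and that of the blood, endothelial and mesenchymal markers was 4.42 to 4.64 and 5.402 to 5.999. Their part in these differences was not tested.

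The log2 differences between selected and BRAF organoids in base medium use no EV array. Their SE, p-values and calls do, because the limma fit pools the spread of all groups, EV included. Here 28 of 51 probes were higher in selected organoids and none lower, against 4.82% and 5.19% of all probes (10% in all), with a median of 1.04 against -0.02. Every class took part, with 2 of 5 H1, 9 of 14 H2A, 5 of 12 H2B, 3 of 8 H3 and 9 of 12 H4 probes. Hist1h3d was at 6.26, 6.001 and 6.14 in selected and 5.17, 4.85 and 4.53 in BRAF organoids, 2.44-fold higher (1.29 ± 0.16, adjusted p = 0.000367). Hist1h4j was at 0.37, -0.35 and 0.16 against -1.09, -1.87 and -2.01 and 3.28-fold higher (adjusted p = 0.00342). The groups of both probes did not overlap. Hist2h3c1 was 4.16-fold higher (adjusted p = 0.00451), and Hist1h2ba was higher by 1.000 ± 0.24 (adjusted p = 0.0192), a call lost in 9 of 38 alternative settings. The mean level of the Hist1h2ba probe was close to that of Hist1h2bm, at 4.21 and 4.32 in selected and 3.21 and 3.44 in BRAF organoids. Whether the Hist1h2ba probe reads transcripts of other H2B genes was not tested. Of 37 tested probes inside the RefSeq length 26 were higher, and of 8 past its end 1 was, Hist1h2bg. Hist1h1a, at 1.63 ± 0.49, just missed the threshold (adjusted p = 0.0513). In BRAF organoids in base medium the summed level was 10.44 to 11.36 for the epithelial markers, of which 3 of 11 were lower in selected organoids, and 4.73 to 5.21 for the blood, endothelial and mesenchymal markers, of which none of the 7 tested was called. Neither range overlapped that of selected organoids given above, and the part of these markers was not tested.

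This count was sensitive to slides and arrays. The shares of all probes called in the fits with slide as a block or arrays left out are not given here. A change particular to histone probes therefore cannot be told from one in all probes. The count was 11 with slide as a fixed block. Leaving out 1 array in base medium gave 14 for selected line 1, 17 for BRAF line 2 and 16 for BRAF line 3. Leaving out a culture in both media gave 14 for selected line 1, 16 for selected line 3, 18 for BRAF line 2 and 15 for BRAF line 3. On the slide that held selected line 3 and BRAF line 1, 44 of the 51 probes were higher in the selected culture in base medium, with a median difference of 0.83. Between cultures of the same line number, 46, 44 and 41 of the 51 were higher in lines 1, 2 and 3, with medians of 1.02, 0.95 and 1.19. In ENSW, where no probe was called, 48, 13 and 37 of the 51 were higher in the selected culture of lines 1, 2 and 3, and 46 on the shared slide, with a median there of 0.74.

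**Figure D5:**
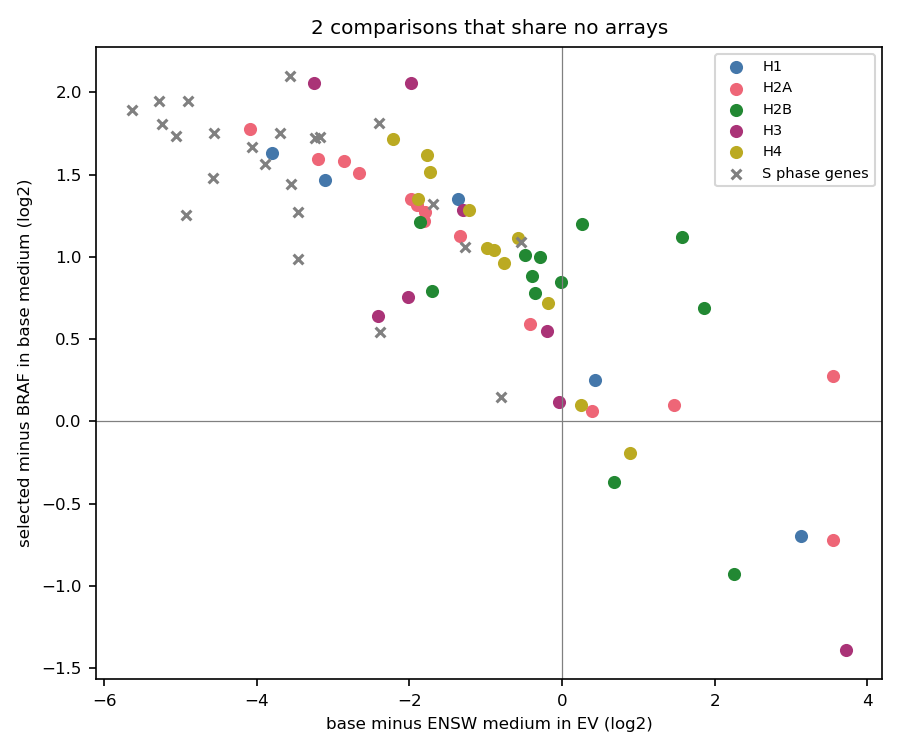
Difference between selected and BRAF organoids in base medium (log2, vertical axis) against that between base medium and ENSW in EV organoids (log2, horizontal axis). Shown are 51 histone probes by class and 23 S phase genes as crosses. The plotted differences share no arrays, but calls in both comparisons rest on the same pooled spread. Probes that fell in EV organoids lie above 0 on the vertical axis, and the S phase genes lie mostly in the same upper left area.

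Across the 51 probes, the response of EV organoids to base medium and the difference between selected and BRAF organoids in base medium ran opposite ways, with Pearson's r = -0.84 and Spearman's rho = -0.84. The probes share sequence and arrays, so this is a description over probes and not over independent replicates. For the 23 S phase genes r was -0.66. No probe was below 0 in both comparisons and 8 were above 0 in both. Of these 8, Hist1h2bg was the only one called in both, and its call between selected and BRAF organoids was lost in 17 of 38 alternative settings.

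Genes that act with these histones moved in many of the same comparisons, but not alike in all of them. Each gene was read by its brightest probe. Of 23 tested S phase genes, 22 fell in EV organoids in base medium, against 19.2% of all probes, and the median was -3.56. Among them were the thymidine kinase Tk1, by -4.57 ± 0.40 (limma adjusted p = 6.58e-06), the licensing factor Cdt1, by -4.07 ± 0.36, and the helicase subunit Mcm4, by -3.69 ± 0.33. The proliferation marker Mki67 differed by -5.01 ± 0.65 in EV, -0.87 ± 0.65 in BRAF and 0.38 ± 0.65 in selected organoids, and only the first was called. In BRAF organoids 2 of the 23 fell, Rpa2 and Cdt1, against 0.656% of all probes, and in selected organoids none was called. Selected exceeded BRAF organoids in base medium for 16 of the 23, against 4.82% of all probes, with a median of 1.67 over the 23. Against EV organoids in base medium, BRAF organoids had 19 of the 23 higher and 1 lower, with a median of 2.09, and Mki67 higher by 3.44. There 8 histone probes were higher and 8 lower, with a median of 0.09, against 17.4% and 13.4% of all probes. The medium response was higher in BRAF than in EV organoids for 15 of the 23, against 2.77% of all probes, with a median of 2.55 over the 23. For histone probes it was higher for 6 of 51 and lower for 1. The part of cell number and of the share of cells in S phase in the histone values was not tested.

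Of 17 tested histone chaperone and transport genes, 16 fell in EV organoids in base medium, against 19.2% of all probes. The H3-H4 chaperone Asf1b fell by 4.18 (adjusted p = 6.2e-06), the large subunit of chromatin assembly factor 1, Chaf1a, by 3.25, and the H1 chaperone Nasp by 2.85. In base medium 16 of 17 were higher in selected than in EV organoids, against 25.1% of all probes. Compared with BRAF organoids 7 of 17 were higher, against 4.82% of all probes. Of 15 genes of histone mRNA transcription and processing, 10 fell in EV organoids, against 19.2% of all probes. Slbp, which binds the stem-loop, fell by 1.39 (adjusted p = 0.000158) and Lsm11, a subunit of the U7 particle that cuts histone pre-mRNA, by 2.25, whereas Npat, which activates histone gene transcription, was at 0.22 ± 0.19 and was not called (adjusted p = 0.387). In base medium 2 of the 15 were higher in selected than in BRAF organoids and none lower, against 4.82% and 5.19% of all probes. Slbp was among the 2, by 0.97 ± 0.21 (limma adjusted p = 0.0123).

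Histone genes outside the clusters were mixed. Of 15 tested variant and replication-independent histone genes, 6 were lower and 2 higher in base medium in EV organoids, with a median of -0.27. Of all probes, 19.2% were lower and 23.3% higher. The centromeric H3 variant Cenpa fell by 4.04, and the DNA damage variant H2afx by 2.67 (adjusted p = 7.31e-06). Of the replacement H3.3 genes, H3f3a rose by 0.43 ± 0.16 (adjusted p = 0.0373) and H3f3b, at 0.19 ± 0.16, was not called. In base medium 3 of 15 were higher in selected than in BRAF organoids, H2afx, H2afj and H2afz, against 4.82% of all probes.

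The promoters of the clustered genes share elements by class. RefSeq (GRCm38.p6) gave 44 promoters for 43 of the genes, each of 250 bases before and 50 after the start, and letters were searched on both strands. CCAAT was in all 36 H1, H2A, H2B and H3 promoters and in 2 of 8 H4 promoters, against 37.4% of all 32851 promoters. TATAAA was in 26 of 44, against 13.6%. ATTTGCAT, the octamer, was in 7 of 14 H2A and 6 of 10 H2B promoters and in no promoter of the other classes, against 1.74%. Some H2A and H2B promoters overlap on opposite strands, so the same site can count in both classes. This holds for the octamer of Hist1h2aa and Hist1h2ba and that of Hist1h2ae and Hist1h2bg. TCAATCNGG was in 2 of 8 H4 promoters, against 0.42%. Shown are the promoters of Hist1h1b and Hist1h2ab, whose probes fell in EV organoids, and of Hist1h2ac, whose probe 1999 bases past the RefSeq end rose. Capitals mark these elements on either strand, the H4 element aside.
Hist1h1b: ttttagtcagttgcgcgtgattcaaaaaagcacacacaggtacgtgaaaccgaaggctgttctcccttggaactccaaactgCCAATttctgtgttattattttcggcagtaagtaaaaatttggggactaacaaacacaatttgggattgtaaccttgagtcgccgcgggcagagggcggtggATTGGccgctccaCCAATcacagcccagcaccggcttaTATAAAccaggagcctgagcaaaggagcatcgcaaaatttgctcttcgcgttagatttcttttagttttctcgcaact
Hist1h2ab: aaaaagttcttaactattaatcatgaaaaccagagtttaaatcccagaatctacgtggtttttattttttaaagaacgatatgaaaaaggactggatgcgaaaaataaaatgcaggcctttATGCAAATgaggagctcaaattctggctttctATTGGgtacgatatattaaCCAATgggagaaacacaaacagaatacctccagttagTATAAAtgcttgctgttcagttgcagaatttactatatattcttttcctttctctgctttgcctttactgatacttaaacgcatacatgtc
Hist1h2ac: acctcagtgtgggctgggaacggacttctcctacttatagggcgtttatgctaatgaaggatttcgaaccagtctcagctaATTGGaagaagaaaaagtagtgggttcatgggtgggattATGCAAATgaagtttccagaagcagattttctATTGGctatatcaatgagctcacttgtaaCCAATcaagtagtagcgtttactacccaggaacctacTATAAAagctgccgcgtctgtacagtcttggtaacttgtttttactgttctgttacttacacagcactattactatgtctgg
They lie at chr13:21780576-21780875, minus strand, chr13:23750838-23751137, plus strand, and chr13:23683910-23684209, minus strand, respectively. The promoters of Hist1h2ab and Hist1h2ac both hold the octamer, CCAAT and TATAAA. Their probes, which differ in position along the transcript, moved in opposite directions in EV organoids. The part of the promoter elements in the histone values was not tested.

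The wild-type arrays, 1 per medium and used in no test, differed in the direction of the EV arrays. Over the 28 probes that fell in EV organoids, the median difference between media was -2.01 in the wild-type culture, and over the 10 that rose it was 2.45. Hist1h1b was at 1.74 in ENSW and -1.21 in base medium there, and Hist1h1c at 2.08 and 5.14.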

How the data were processed

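RNA of 20 cultures was measured on one-colour arrays with 43020 spots besides controls. The files hold scanner intensity, background-subtracted by the authors' scanner software (Feature Extraction 10.7.3.1, per the file headers). The deposited series table holds log2 values, which ranked as log2 of the median intensity of each spot and served as an alternative. Per the submitters' processing notes, limma was used. Here, outlier spots (98 to 158 per array) were left out, log2 processed intensity minus the 75th percentile of the array was averaged per probe, and probes that rose well above background on 3 or more of the 18 arrays were fitted with limma 3.58.1 (R 4.3.3), 6 group means and 12 residual degrees of freedom. A fold against a group with no array above background is a lower bound, taken against, per array, the dim signal or the lowest signal well above background, whichever was higher. It is not strict where the brighter group also had an array not above background, as for Hist1h1d and Hist1h2bq. The arrays, 3 per group, limit precision. Alternatives covered background correction, scaling, filters, the deposited values, blocks and left-out arrays.

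The members and gene lists were chosen with earlier results of these data known. Probes named in the text were, per comparison, up to 3 called probes per class with the largest differences and no overlap, all H1, Hist2h, Hist3h and Hist4h probes, testis genes and the 2 brightest per class. Up to 2 per direction with no array above background in 1 group were added, and for tests of differing responses the 2 smallest p per class. Other probes named were picked after their values were seen. For list genes, up to 3 per comparison were taken by smallest p, plus Mki67, Slbp, Npat, H2afx, H2afz, H3f3b and H1f0. A gene of a list was read by its brightest probe. The line numbers pair the media of a type (correlations of deviations from 0.43 to 0.88), from 3 pairs each. They also pair selected with BRAF organoids, at 0.17 to 0.38 in the same medium and 0.11 to 0.32 across media, from 3 pairs each. In the same medium, EV and BRAF lines correlated at 0.00097 to 0.22 for the same number and at -0.23 to 0.16 for different numbers. For EV and selected lines the ranges were -0.06 to 0.10 and -0.13 to 0.10. Whether the numbers pair EV lines with the other types was not settled. Files were read as deposited, probe coordinates are mm9, and the script was tested on simulated data.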

Additional observations from a re-analysis of the deposited data

Results flagged for a closer look

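The groups held 3 arrays each, so no single array was tested as an outlier. The results that follow passed a test of the difference between medium responses (limma interaction, adjusted p under 0.05), given as the response of the first type minus that of EV organoids in log2 units.

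The response differed between BRAF and EV organoids for 7 histone probes. The named ones were Hist1h1a (2.84), Hist1h1b (2.16), Hist1h2ab (2.66), Hist1h3f (1.52) and Hist1h2ac (-1.95). It differed between selected and EV organoids for 34, of which 21 probes are named here and the rest are not. Of 4 H1 probes called, the named ones were Hist1h1a (4.37), Hist1h1b (3.47), Hist1h1e (1.70) and Hist1h1c (-2.50). Of 11 H2A probes called, 9 higher and 2 lower, the named ones were Hist1h2ab (4.49), Hist1h2ak (3.32), Hist1h2ah (2.38), Hist1h2af (2.18), Hist2h2ac (2.17), Hist2h2aa2 (1.73) and Hist2h2aa1 (-3.02). Of 3 H2B probes called, Hist2h2bb (2.52) and Hist1h2bc (-1.88) are named, and of 6 H3 probes Hist2h3c1 (3.61), Hist1h3d (1.61) and Hist2h3c2-ps (-3.05). Of 10 H4 probes called, 9 higher and 1 lower, the named ones were Hist1h4j (2.57), Hist1h4d (2.23), Hist2h4 (2.28 and 1.32 on its 2 probes) and Hist4h4 (1.28).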

How the results depend on the processing

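The counts of histone probes called were recomputed under 11 other settings where they could be fitted. The share of all probes called in a recomputed fit is given only where the text above states it. Leaving out both arrays of a culture was added after seeing the data. For EV organoids between media the count of 38 ran from 31 to 39. For BRAF organoids between media, 2 became 4 with the authors' deposited log2 values, 1 with no filter, 4 with the replicate block, 4 with slide as a random block and 27 with culture as a random block. For BRAF against EV in ENSW, 2 became 4 with normexp, 6 with the deposited log2 values, and 1 with no filter, culture or slide as a random block. For selected against EV in ENSW, 3 became 6 with the deposited log2 values. For selected against BRAF in base medium, 28 became 11 with slide as a fixed block, and 14, 16, 18 and 15 without selected line 1, selected line 3, BRAF line 2 or BRAF line 3 in both media. For the response of BRAF against EV organoids, 7 became 14 with normexp, 4 with median scaling, 2 with no filter, 21 with culture as a block and 2 with slide as a fixed block. For selected against BRAF responses, 0 became 6 with culture as a block. The replicate block changed no other count by over 1.5 times. Slide as a fixed block could not be fitted between EV and the other types. The causes were not tested.

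Leaving out 1 array gave 35 to 38 for EV, 0 to 22 for BRAF and 0 to 0 for selected organoids between media. In ENSW it gave 0 to 3 for BRAF against EV, 0 to 4 for selected against EV and 0 to 0 for selected against BRAF. In base medium it gave 8 to 18, 31 to 37 and 14 to 32. For the responses it gave 0 to 14 for BRAF against EV, 27 to 35 for selected against EV and 0 to 0 for selected against BRAF. Leaving out both arrays of a culture gave, in the same order, 32 to 38, 0 to 22 and 0 to 0 between media, 0 to 3, 0 to 6 and 0 to 0 in ENSW, 5 to 17, 30 to 38 and 14 to 33 in base medium, and 0 to 3, 26 to 35 and 0 to 0 for the responses.

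Among recomputed values of named probes, 4774 kept direction and side of the threshold, 460 were no longer past it, 24 newly passed it and 3 turned direction, all with normexp: Hist3h2bb-ps at -0.018 for selected minus EV and -0.035 for selected minus BRAF in base medium, and Hist2h2bb at -0.0015 for the response of BRAF minus EV organoids.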
